A study of Homo sapiens with 4 samples.

Results

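The circadian clock genes were examined in FOXK2 ChIP-seq peak lists of OVCAR5 cells, a human ovarian cancer line labelled as high grade serous. The members were PER1, PER2, PER3, CRY1, CRY2, CLOCK, ARNTL (also called BMAL1), NR1D1, NR1D2 and BHLHE40, and every peak whose deposited gene name was one of these 10 was taken. That gave 15 of the 12471 peaks of replicate 1 and 29 of the 27281 peaks of replicate 2. Both replicates were unperturbed cells grown in RPMI medium with serum and used at passage 4 to 6, so the data hold a single condition, and the input libraries were not analysed here. In these libraries FOXK2 occupancy was measured and RNA was not. A peak does not show whether the gene is on or off, nor at what phase of the clock the cells were.

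The circadian clock is a loop of transcription factors that times gene expression to the day. The CLOCK and ARNTL proteins bind together to E-box sequences and activate the PER, CRY and NR1D genes, the PER and CRY proteins enter the nucleus and repress CLOCK and ARNTL, and the nuclear receptors NR1D1 and NR1D2 (REV-ERB alpha and beta) repress ARNTL itself. BHLHE40 (DEC1) is an E-box repressor, and FOXK2 is a forkhead factor that binds sequences of the type TGTTTAC.

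FOXK2 peaks lay at nearly every arm of this loop. A peak was assigned to 8 of 10 clock genes in replicate 1, where 31.3% of 20056 protein-coding genes had one, and to 10 of 10 in replicate 2, where 51.7% had one. In both replicates the counts were 8 of 10 clock genes and 28.6% of protein-coding genes. The exceptions were PER3 and CLOCK, which had peaks in replicate 2 only. All 8 also had a peak within 10000 bp of the transcription start site (TSS) in both replicates, which held for 16.9% of protein-coding genes. At the stronger end, 7 of 10 clock genes (PER1, PER2, CRY1, CRY2, ARNTL, NR1D1 and NR1D2) had their best peak at or above percentile 90 of its own list in both replicates, against 4.45% of protein-coding genes. This percentile was chosen after seeing the values, and at percentile 95 the counts were 5 clock genes and 2.38% of genes. A percentile here is the share of peaks in the same list whose score is no higher, since scores are scaled to each library and cannot be set side by side across lists.

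The sites of replicate 1 all recurred in replicate 2. Each of the 15 clock gene peaks in the shorter list shared 1 bp or more with a peak in the longer one (Wilson 95% interval 79.6% to 100%), where 74.9% of the full shorter list did. With the higher-scoring part of each list, 13 of 14 had a partner (92.9%) and 88.7% of all such peaks did. In the opposite direction, 15 of 29 clock gene peaks had a partner (51.7%, 34.4% to 68.6%), where 34.2% of the full longer list did. These intervals cover counting error only. The centres of the 15 pairs lay a median of 26 bp apart, and 29 bp was the median over all 9343 pairs. The 15 overlapped peaks of replicate 2 had a median percentile of 94.3, and the 14 peaks without a partner had a median of 28.7.

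**Figure D1:**
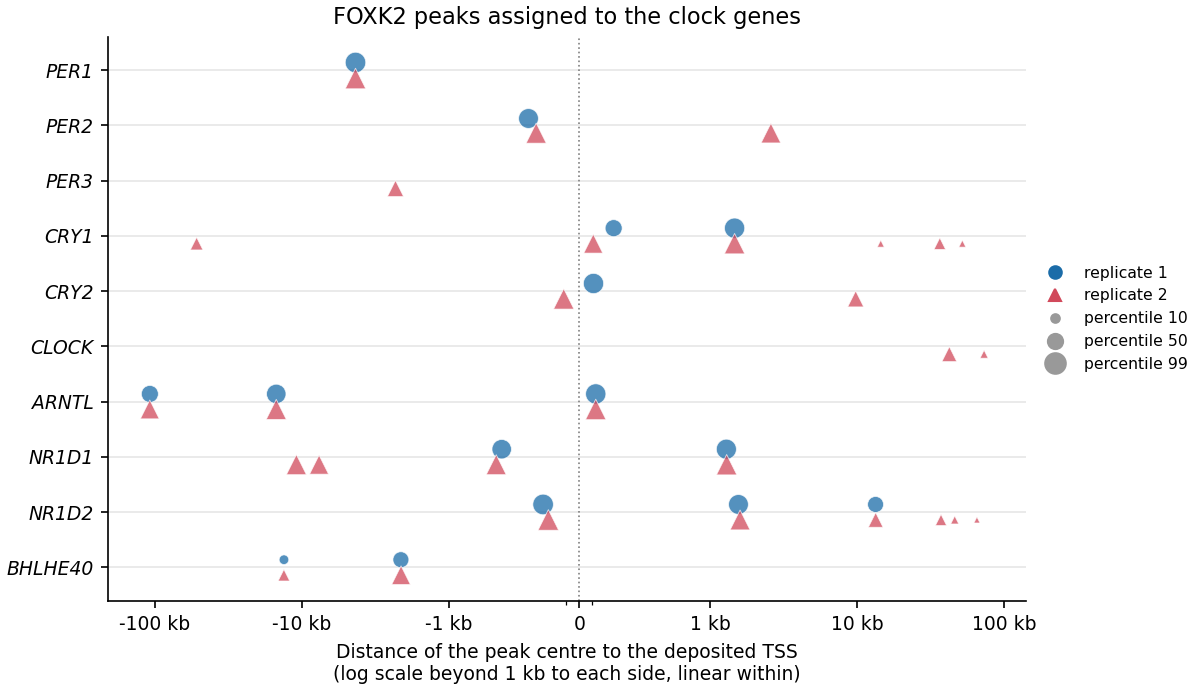
Position and strength of every peak assigned to the 10 clock genes. The x axis is the distance of the peak centre to the TSS named in the deposited annotation, each row is a gene, circles are replicate 1, triangles are replicate 2, and larger symbols have a higher score percentile within their own list. The best peaks come in pairs, at -4328 bp and -4321 bp for PER1 and within 2000 bp for PER2, CRY1, CRY2, ARNTL, NR1D1 and NR1D2. Beyond 2000 bp and apart from PER1, the symbols above percentile 80 are ARNTL near -14900 bp in both replicates and, in replicate 2 alone, ARNTL at -108097 bp, NR1D1 at -10868 bp and -7618 bp, PER2 at +2601 bp and BHLHE40 at -2109 bp.

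The sequences under the best peaks of 5 clock genes are shown, because they show which binding letters the peaks hold. Those of ARNTL and CRY2 reach into transcribed first exons and are not printed whole, and the part of the CRY2 peak shared by both replicates and outside the exons held none of these motifs. Each run is the hg38 sequence shared by the peaks of both replicates, 5′ to 3′ on the strand of the gene. Capitals mark the forkhead heptamer TGTTTAC, its first 6 bases TGTTTA where the heptamer is absent, the E-box CACGTG, and the D-box TTATGTAA or TTACGTAA (bound by PAR bZIP factors of the clock output), on either strand.
NR1D2 promoter, chr3:23945756-23945949, plus strand: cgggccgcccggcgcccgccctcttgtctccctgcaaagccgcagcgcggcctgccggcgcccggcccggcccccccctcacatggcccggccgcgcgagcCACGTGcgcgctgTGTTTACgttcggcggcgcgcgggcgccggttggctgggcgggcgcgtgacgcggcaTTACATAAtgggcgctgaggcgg
PER1 upstream, chr17:8156658-8156868, minus strand: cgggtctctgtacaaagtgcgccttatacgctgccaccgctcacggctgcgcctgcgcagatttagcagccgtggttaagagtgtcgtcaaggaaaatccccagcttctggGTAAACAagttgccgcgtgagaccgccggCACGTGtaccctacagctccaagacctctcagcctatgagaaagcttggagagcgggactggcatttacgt
CRY1 intron 1, chr12:107092280-107092490, minus strand: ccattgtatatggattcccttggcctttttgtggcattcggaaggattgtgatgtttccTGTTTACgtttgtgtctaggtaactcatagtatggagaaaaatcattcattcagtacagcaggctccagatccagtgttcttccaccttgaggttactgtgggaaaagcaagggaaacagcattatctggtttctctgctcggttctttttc
NR1D1 intron 1, chr17:40099326-40099536, minus strand: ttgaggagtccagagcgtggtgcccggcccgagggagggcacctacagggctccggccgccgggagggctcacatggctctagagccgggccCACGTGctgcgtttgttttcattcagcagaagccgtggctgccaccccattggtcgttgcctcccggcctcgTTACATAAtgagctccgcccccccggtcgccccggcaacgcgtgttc
PER2 promoter, chr2:238288857-238289024, minus strand: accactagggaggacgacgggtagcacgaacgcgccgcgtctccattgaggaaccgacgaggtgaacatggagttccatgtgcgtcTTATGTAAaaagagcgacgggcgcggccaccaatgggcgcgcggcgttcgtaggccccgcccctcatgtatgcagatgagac
In the NR1D2 run, 7 bases separate the E-box from the heptamer, and in PER1 they are 22 bases apart. The NR1D1 and NR1D2 runs each pair an E-box with a D-box, at spacings of 66 and 64 bases. PER2 holds a D-box and no forkhead match, and CRY1 holds the heptamer alone. At sites in or beside transcribed first exons, and at one weak upstream peak, a shorter stretch of 27 bases is given 5′ to 3′ on the strand of the match, with the heptamer in capitals and the coordinates those of the heptamer.
ARNTL first exon, chr11:13277841-13277847, plus strand: cggaggtgccTGTTTACccgcgccgga
CRY1 start, chr12:107093648-107093654, plus strand: ttctgaagtgTGTTTACtacactggct
BHLHE40 upstream, chr3:4966207-4966213, minus strand: ctggcagcttTGTTTACatagtaaagc

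Among the repressors of the nuclear receptor arm, NR1D2 carried the strongest peak of all clock genes. Its promoter peak scored 27.2 in replicate 1, rank 118 of 12471 and percentile 99.1. In replicate 2 it scored 61.1, rank 79 of 27281 and percentile 99.7. The centre lay at -277 bp and -237 bp of the deposited TSS, and the same place falls in intron 1 of the canonical GENCODE transcript, 558 bp and 598 bp after its start. With 78.2% and 78.6% GC, these were the most GC-rich of all clock gene peaks. A weaker pair in intron 1 (+1564 bp, score 12.1, percentile 91.3 in replicate 1, and +1604 bp, score 18.0, percentile 92.3 in replicate 2) also held an E-box and the heptamer, 139 bases apart. A further pair in intron 3 was near the middle of both lists, at percentiles 56.1 and 46.1. The other 3 peaks, 37379, 46338 and 65620 bp downstream, occurred in replicate 2 only, at percentiles 23.4, 7.79 and 0.663.

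NR1D1, the paralog on chromosome 17, had 2 sites near its start and no exact heptamer in any peak. The intron 1 peak scored 13.8 in replicate 1 (+1294 bp, rank 776, percentile 93.8) and 27.5 in replicate 2 (+1300 bp, rank 681, percentile 97.5). The promoter peak scored 10.8 (-594 bp, percentile 87.8) and 18.4 (-636 bp, percentile 92.8). Upstream, replicate 2 alone had peaks at -10868 bp (score 18.9, percentile 93.3) and -7618 bp (score 12.9, percentile 83.2). For comparison with the first, 15.2% of replicate 2 peaks above percentile 90 and up to 95 had no partner in replicate 1, and above percentile 95 the share was 2.83%.

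The PER genes, whose products repress CLOCK and ARNTL, showed different patterns. PER1 had 1 peak in each replicate, at chr17:8156658-8156868 and chr17:8156628-8156884. It scored 22.6 in replicate 1 (rank 195, percentile 98.4) and 40.6 in replicate 2 (rank 244, percentile 99.1), next after NR1D2 in both lists. The files call it intergenic, 4328 bp and 4321 bp upstream of the TSS, although GENCODE has a PER1 transcript that starts only 257 bp and 250 bp away. The heptamer sat 9 bp from the peak centre in replicate 1 and 2 bp from it in replicate 2.

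PER2 had a promoter peak at -396 bp in replicate 1 (score 12.1, rank 1091, percentile 91.3) and at -330 bp in replicate 2 (score 20.5, rank 1455, percentile 94.7). Replicate 2 added an intron 1 peak at +2601 bp (score 15.9, percentile 89.6). PER3, the remaining PER paralog, had no peak in replicate 1 and 1 peak in replicate 2, at chr1:7781990-7782246. That peak scored 8.03 (percentile 57.7) and lay 2311 bp upstream of PER3, at the annotated end of another transcript, so it was the weakest best peak of the 3 PER genes.

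The cryptochromes CRY1 and CRY2, the partners of the PER proteins, had best peaks of nearly the same score at different places in the gene. CRY1 was occupied in intron 1 at +1472 bp in both replicates, with a score of 15.5 (rank 541, percentile 95.7) and 27.5 (rank 681, percentile 97.5). CRY2 was occupied at its promoter, at +103 bp (score 15.7, rank 528, percentile 95.8) and -119 bp (score 26.8, rank 743, percentile 97.3). The files measure these from the starts of different CRY2 transcripts, and the peak centres were 66 bp apart. The CRY1 peak held the heptamer, 43 bp from the centre in each replicate, and the CRY2 promoter peak did not.

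CRY1 also had a pair over its start, annotated as 5′ UTR, with scores of 6.98 at +263 bp (percentile 65.1) and 12.8 at +107 bp (percentile 82.8). These overlapped by 78 bp, the least of any pair, and both held the second heptamer printed above for CRY1. In replicate 2 alone, CRY1 had 4 weak peaks between -51887 bp and +52214 bp, at percentiles from 3.65 to 31.9. CRY2 had 1 such peak, in intron 2 at +9818 bp (score 7.88, percentile 56.5).

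The activators CLOCK and ARNTL stood far apart. ARNTL, the partner of CLOCK, had 3 peaks in each replicate, all paired. The peak at its first exon (+126 bp) scored 16 in replicate 1 (rank 498, percentile 96.0) and 33.6 in replicate 2 (rank 408, percentile 98.5), with the heptamer 9 bp from the centre. Another site lay upstream, at -14902 bp (score 10.8, percentile 87.8) and -14900 bp (score 20.1, percentile 94.3). The most distant pair, at -108012 bp and -108097 bp, reached percentiles 65.1 and 81.9.

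CLOCK had no peak in replicate 1. Its 2 peaks in replicate 2 were in introns 2 and 7, at +42589 bp (score 6.99, percentile 47.7) and +73411 bp (score 4.02, percentile 7.79), and none lay within 10000 bp of the deposited TSS. The distal one held the heptamer. A missing peak means only that none passed the caller's threshold. That threshold, and whether the input libraries served as control in the peak call, are not given in the sources used here. The paper does report an FDR cut for its ChIP-seq peaks and a comparison with input for the peak in ERN1. Whether that cut was applied to the lists used here is not stated. The shorter list of replicate 1 reached down to a score of 3.02 and that of replicate 2 to 3.12.

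BHLHE40, the E-box repressor, was the weakest of the 8 genes with peaks in both replicates. Its better pair scored 6.23 at -2114 bp (rank 5476, percentile 56.1) and 12 at -2109 bp (rank 5326, percentile 80.5), and held TGTTTA without the final C. The pair at -13208 bp and -13218 bp scored 4.15 and 5.21 (percentiles 14.7 and 25.6) and held the full heptamer. This weak pair had focus ratios of 0.929 and 0.909, the highest of all clock gene peaks in replicate 1 and equal to the highest in replicate 2. The focus ratio is the fraction of tags on the expected side of the centre, with medians of 0.816 and 0.773 over the clock gene peaks and 0.758 and 0.755 over all peaks. Both BHLHE40 sites lie in intron 1 of the antisense transcript BHLHE40-AS1.

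The order of the best peaks changed little between lists. NR1D2 was first in both replicates, PER1 came next and ARNTL after it, CRY1, CRY2 and NR1D1 followed, then PER2, and BHLHE40 was last. Mean percentiles over the 2 replicates were 99.4 ± 0.461 for NR1D2, 98.8 ± 0.470 for PER1, 97.3 ± 1.76 for ARNTL, 96.6 ± 1.30 for CRY1, 96.5 ± 1.06 for CRY2, 95.6 ± 2.63 for NR1D1, 93.0 ± 2.41 for PER2 and 68.3 ± 17.2 for BHLHE40 (SD, n = 2). Neighbours in this order differed by less than the sum of their SDs, except PER2 and BHLHE40. Every one of these percentiles was higher in replicate 2, the longer list.

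Counting error alone separated only some of them. Within a list, the low scores are multiples of the same increment, which was read as 1 tag. This was not checked for the higher scores, to which the same increment was applied. Exact Poisson 95% intervals were placed on the scores. In replicate 1 the intervals of NR1D2 (22.9 to 32.0) and PER1 (18.8 to 27.1) overlapped, while in replicate 2 NR1D2 (55.4 to 67.3) lay above PER1 (35.9 to 45.7). In replicate 2 the interval of CRY1 (23.7 to 31.8) overlapped those of ARNTL (29.4 to 38.3) and CRY2 (23.0 to 31.0). The interval of PER2 (17.2 to 24.2) lay below that of ARNTL and touched those of CRY1 and CRY2 at its upper end.

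**Figure D2:**
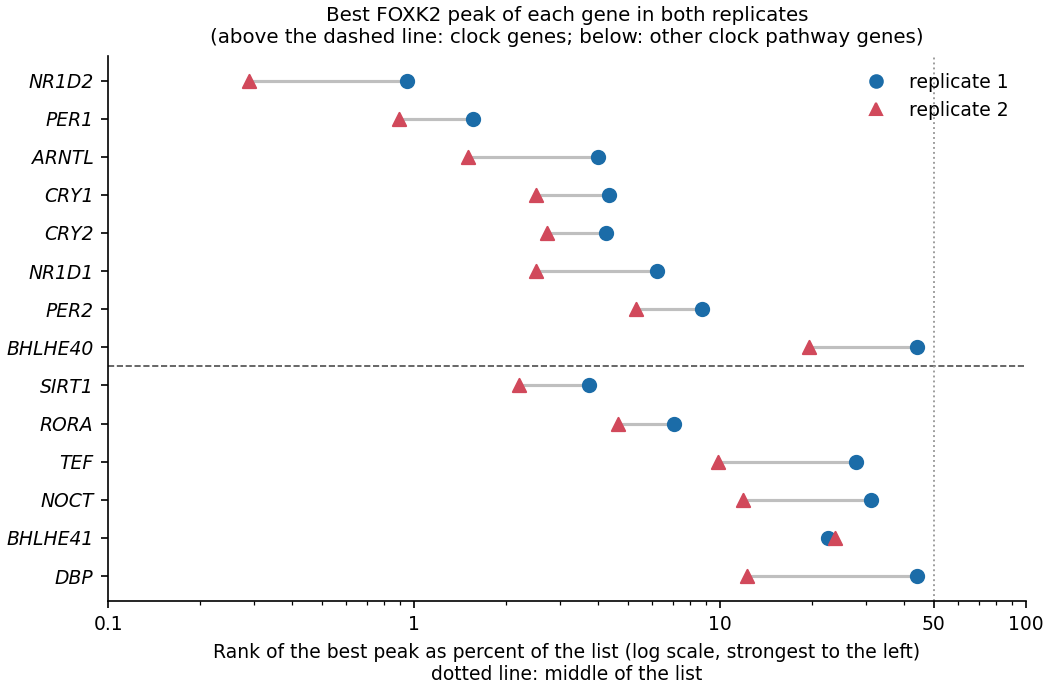
Rank of the best peak of each gene as a percent of its own list, on a log scale with the strongest to the left. Circles are replicate 1 and triangles replicate 2, the 8 clock genes with peaks in both replicates are above the dashed line, and the 6 genes with the highest mean percentile among 26 other clock pathway genes are below it. All best peaks lie in the stronger part of their list, left of the dotted line at 50%, with NR1D2 first among the clock genes and SIRT1 first among the others shown.

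Set against all genes, the clock genes sat high in the distribution. The median over the 8 clock genes of the mean best percentile was 96.6, and it was 70.0 over the 5736 protein-coding genes with a peak in both replicates. Taking all 44 clock gene peaks instead of the best of each gene, the mean of the 2 replicate medians was 86.6, against 50.7 over all peaks. The number of peaks per gene reached 3 in replicate 1 and 6 in replicate 2 (CRY1 and NR1D2), with a median of 1 over all genes that had any. Genes with 6 or more peaks made up 3.67% of those in replicate 2. No test was made of these differences, and with 1 condition and 2 replicates none compares conditions.

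**Figure D3:**
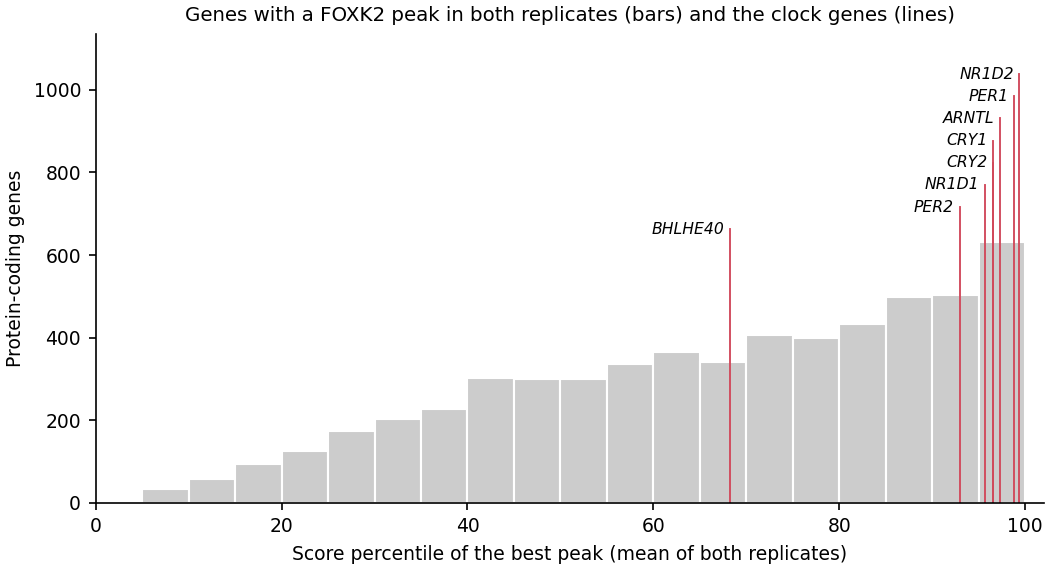
Distribution of the best peak's score percentile, averaged over both replicates, for the 5736 protein-coding genes with a peak in both. Grey bars count genes in bins of 5 percentile points and red lines mark the 8 clock genes. NR1D2, PER1, ARNTL, CRY1, CRY2 and NR1D1 fall in the highest bin, which holds 631 genes, PER2 in the bin below it, and BHLHE40 at 68.3.

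In replicate 1 most clock gene peaks lay close to gene starts, and in replicate 2 they were spread more widely. The median absolute distance to the TSS was 1472 bp in replicate 1 and 9818 bp in replicate 2, against 16140 bp and 20161 bp over all peaks. In replicate 1, 9 of 15 clock gene peaks (60%) were within 2000 bp of the TSS, where 29.9% of all peaks were, and in replicate 2 the count was 9 of 29 (31.0%, against 24.9%), near the share of all peaks. Beyond 10000 bp lay 4 of 15 and 14 of 29 clock gene peaks, against 7127 of 12471 and 16949 of 27281 peaks in the full lists. By the deposited classes, only PER2, CRY2, NR1D1 and NR1D2 had a promoter peak in both replicates (4 of 10, against 9.3% of protein-coding genes), because the best PER1 peak was called intergenic, the ARNTL peak non-coding exon and the CRY1 peaks intron and 5′ UTR. Median GC content was 56.9% and 49.0% for clock gene peaks, against 47.4% and 45.9% for all peaks. With GENCODE starts of any transcript, a choice made after seeing the data, 7 of 10 clock genes (all but PER3, CLOCK and BHLHE40) had a peak within 2000 bp of a start in both replicates, against 18.97% of protein-coding genes.

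The forkhead heptamer was present in many but not most clock gene peaks. Within 100 bp of the centre, TGTTTAC was found in 7 of 15 peaks in replicate 1 (46.7%, Wilson 95% interval 24.8% to 69.9%) and in 12 of 29 in replicate 2 (41.4%, 25.5% to 59.3%). Over all peaks the shares were 30.5% and 28.2%, inside those wide intervals. In windows 2000 bp to each side of the clock gene peaks the shares were 3.33% and 3.45%. The best peaks of NR1D2, PER1, ARNTL and CRY1 held the heptamer in both replicates, and those of CRY2, NR1D1, PER2 and BHLHE40 did not. The 6-base TGTTTA, which every heptamer contains, was in 11 of 15 and 20 of 29 clock gene peaks (73.3%, 48.1% to 89.1%, and 69.0%, 50.8% to 82.7%). Over all peaks it was in 44.8% and 43.4%. Within 50 bp of the centre TGTTTA was in 46.7% (24.8% to 69.9%) and 51.7% (34.4% to 68.6%) of clock gene peaks. The 35.2% and 34.45% of all peaks lay inside both of these intervals. All these intervals treat each peak as independent, although some genes have several peaks and paired peaks share their sequence. They were therefore not read as a test.

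Sequences of the clock itself were also found under these peaks, in a search chosen after seeing the data and given as a description. In the same windows, the E-box CACGTG was in 4 of 15 peaks of replicate 1 (26.7%, 10.9% to 52.0%), in PER1, NR1D1 and both stronger NR1D2 peaks, where 6.02% of all peaks held it. In replicate 2 it was in 5 of 29 (17.2%, 7.60% to 34.5%), the added one being the NR1D1 peak at -7618 bp, against 5.21%. The D-box (TTATGTAA or TTACGTAA) lay in 3 of 15 (20.0%, 7.05% to 45.2%), in PER2, NR1D1 and NR1D2, against 1.74% of all peaks, and in 4 of 29 (13.8%, 5.50% to 30.6%) against 1.63%, the added one being the weak CRY1 peak at +36677 bp. In windows 2000 bp to each side of the clock gene peaks the E-box was at 0% (0% to 11.4%) and 3.45% (0.951% to 11.7%). The D-box was there at 6.67% (1.85% to 21.3%) and 5.17% (1.77% to 14.1%). For both motifs these intervals overlap those of the peaks. For AGGTCA and the AP-1 site the interval of the clock gene peaks included the share of all peaks. AGGTCA, an element read by the NR1D receptors, was in 13.3% and 10.3% of clock gene peaks against 13.9% in each full list, and the AP-1 site TGACTCA or TGAGTCA was in 26.7% and 20.7% against 16.4% and 16.6%. All motifs were searched on both strands, and replicate 1 and 2 windows of a pair share their sequence.

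**Figure D4:**
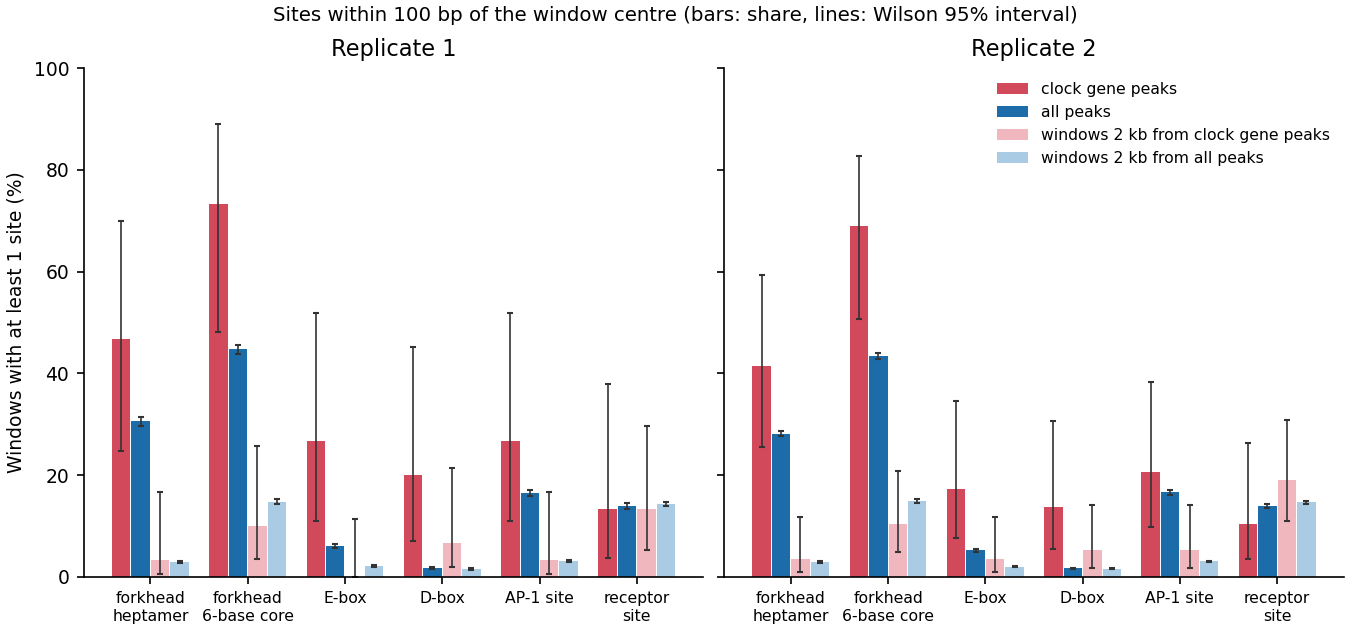
Share of windows of 100 bp to each side of the centre that held at least 1 site, for 6 motifs and both replicates. Bars compare the clock gene peaks with all peaks and with windows 2000 bp away, and lines are Wilson 95% intervals. The heptamer bars of the clock gene peaks reach 46.7% and 41.4%, the E-box and D-box bars are above those of all peaks, and the bars of the receptor site AGGTCA are level with them.

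The RefSeq promoters of the same genes (250 bases before to 50 after each start, GRCh38.p14) gave a narrower view, with 15 windows for the 10 genes among 35116 in all. TGTTTAC was in 3.42% of all promoters and, of the clock genes, in a promoter of CRY1 only. CACGTG was in 7.26% of all and in promoters of PER1, NR1D2 and BHLHE40. The D-box was in 1.01% of all and in promoters of PER2, PER3 and NR1D2. AGGTCA was in 13.8% of all and in 4 of the 15 clock gene windows, those of ARNTL, CRY2 and PER1. The AP-1 site was in 4.95% of all and in no clock gene window. A match says only that the letters are present.

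The wider clock pathway was also occupied in part. Of the 26 other genes with clock roles that were counted, 12 had a peak in both replicates (46.2%, against 28.6% of protein-coding genes) and 19 in replicate 2 (73.1%, against 51.7%). Percentile 90 in both was reached by 2 of them (RORA and SIRT1), against 4.45% of protein-coding genes. Over the 12 the mean best percentile ran from 8.75 (CUL1) to 97.04 (SIRT1), with a median of 65.6 where all such genes had 70.0. These values cover only the genes counted. At the low end stood CUL1 and RBX1, subunits of cullin ubiquitin ligases (8.75 and 27.1), PRKAA1, an AMPK subunit (22.4), and the kinases GSK3B (38.6) and CSNK1D (43.1). SIRT1, a deacetylase that acts on clock proteins, had a promoter peak with scores of 16.4 (rank 465, percentile 96.3) and 28.7 (rank 601, percentile 97.8), with 2 E-boxes and no forkhead match. RORA, a receptor that activates ARNTL where NR1D1 and NR1D2 repress it, had a promoter peak with the heptamer, at -107 bp (score 13.2, rank 879, percentile 93.0) and -81 bp (score 21.6, rank 1270, percentile 95.3).

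BHLHE41 (DEC2), the paralog of BHLHE40, also had its best peak upstream, at -10185 bp (score 8.49, percentile 77.5) and -10214 bp (score 11, percentile 76.3), and this peak held the heptamer. The promoter peak of DBP, a PAR bZIP factor that binds D-boxes, was at percentiles 56.1 and 87.8. The best peaks of TEF, another PAR bZIP factor, and of NOCT, a rhythmic phosphatase, lay at different places in the 2 replicates, with percentiles of 72.1 and 90.2 for TEF and 69.0 and 88.1 for NOCT. No peak in either replicate was assigned to ARNTL2, CIART, HLF, CSNK1E, PRKAA2, USP2 or TIMELESS, and NPAS2, a paralog of CLOCK, had 6 peaks in replicate 2 only, the best at percentile 74.9.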

How the data were processed

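The deposited peak lists of 2 biological replicates of OVCAR5 cells, precipitated with an antibody to FOXK2, were used. The authors aligned single-end 50-bp reads against hg38 (Bowtie2 2.2.6), then called and annotated peaks per replicate (HOMER 4.10). The deposited peak score is scaled to each library, so it was ranked only within its list. The deposited focus ratio is a fraction of tags, and the deposited distances to the TSS and gene names were used as given, with nothing filtered. With the score increment read as 1 tag, the lists reached down to 16 tags (replicate 1) and 21 tags (replicate 2).

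The members, the pathway genes and the motifs were chosen with earlier results of these data known. Every peak of every member was reported, together with the 6 pathway genes of highest mean percentile among those with peaks in both replicates. The pathway counts cover 26 genes, since some genes of the list are not reported here and were left out of every count and median. Peaks were shared at an overlap of 1 bp or more. Shares over genes used RefSeq protein-coding genes (GRCh38.p14), matched by Entrez ID, and starts came from GENCODE release 44. Overlap, ranking and motif steps passed 6 of 6 checks on simulated data. Alternatives tried were promoter peaks only, distance limits, lists limited at their median score or to equal length, closer overlap, other motif windows and leaving out a replicate. The input libraries and reads were not analysed here. Python 3.11.15, numpy 2.4.6, pandas 2.3.3, scipy 1.17.1, pysam 0.24.0, matplotlib 3.10.9 and samtools 1.23.1 were used.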

Additional observations from a re-analysis of the deposited data

Results flagged for a closer look

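Some peaks close to clock genes carried the name of another gene in the deposited annotation, so the counts above leave them out. They are given here because they occurred within 10000 bp of a transcript start of a clock gene and overlapped between replicates, a signal outside the rows that were counted. No control sample was analysed, and each peak had passed the caller's threshold.

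The strongest was near BHLHE40. A peak named for its antisense transcript BHLHE40-AS1, at chr3:4986866-4987076 in replicate 1 and chr3:4986851-4987107 in replicate 2, lay 6739 bp and 6747 bp downstream of the nearest BHLHE40 transcript start. It scored 11.3 (rank 1313, percentile 89.5) and 20.2 (rank 1516, percentile 94.4), higher than either peak assigned to BHLHE40 in each list. Near PER1, a peak at the promoter of VAMP2, which encodes a synaptic vesicle protein, was at percentiles 19.4 and 70.3. In the last intron of CRY2, a peak named for MAPK8IP1 was at percentiles 50.7 and 76.3.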

How the results depend on the processing

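The count of 8 clock genes with a peak in both replicates moved by over 1.5 times only with promoter-annotated peaks alone, which gave 4, and leaving out a replicate gave 8 to 10. The 12 pathway genes became 6 with promoter-annotated peaks alone (9.3% of all protein-coding genes), 7 within 10000 bp of the deposited TSS (16.9%), 7 in the higher-scoring part of each list (16.9%), 19 when 1 replicate sufficed (54.4%), and 12 to 19 without a replicate. All 15 replicate 1 clock gene peaks had a partner, and with an overlap of 50% of the shorter peak 93.3% had one (70.2% to 98.8%, against 71.7% of all peaks). With lists of equal length, 13 of 15 had one (86.7%, 62.1% to 96.3%, against 59.98% of all peaks). The share of replicate 2 clock gene peaks with a partner was 72.2% (Wilson 95% interval 49.1% to 87.5%) in the higher-scoring part, against 40.5% of all peaks, and also with lists of equal length, where the share of all peaks was 59.97%, inside that interval. The median best percentile was 94.7 over promoter-annotated peaks of 4 clock genes, against 75.4 over all protein-coding genes with such peaks. Without replicate 2 it was 95.7, against 58.6 over all genes, and without replicate 1 it was 97.4, against 63.6. Over all clock gene peaks the mean of the 2 replicate medians was 86.6, against 50.7 over all peaks. The heptamer share of 43.2% over both lists became 70.5% with TGTTTA and 3.41% in control windows, and was 41.4% to 46.7% without a replicate. With lists of equal length, the mean percentile of PER2 was 89.8, so PER2 was below percentile 90 in at least 1 list. The count of 7 clock genes at percentile 90 in both replicates was not repeated with those lists. No value reversed. Beyond those printed here, 3 single-gene percentiles (PER1, CRY1 and CRY2) moved by more than their SD with lists of equal length. No paired analysis was possible because the inputs, which bear the same replicate numbers, were not analysed here, which left 1 group. In replicate 2, 51.7% of clock gene peaks had a partner, against 34.2% of all peaks. The 14 of 29 clock gene peaks without one included every peak of PER3 and CLOCK. The reads were not analysed here, and the part of the shorter replicate 1 list in this was not tested.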

Other observations

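Other peaks inside or just past clock genes bore the names of neighbours and did not overlap between replicates. Replicate 2 had peaks in introns 17 and 14 of PER2 that the files name for HES6, a relative of the HES repressors, at percentiles 44.4 and 39.4. Past the 3′ end of PER1, peaks named for MIR6883 were at percentile 32.7 in replicate 1 and 67.5 in replicate 2.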
